A study of Mus musculus with 6 samples.

Results

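The genes of the unfolded protein response and of protein folding in the endoplasmic reticulum (ER) were followed as 33 named members, taken by symbol from a table of 54532 genes. Polyadenylated RNA of the intestinal epithelium was sequenced from mice labelled Apoe-/- that were gavaged with the fungus Candida albicans (3 libraries) or with phosphate-buffered saline, PBS (3 libraries). The labels give the Apoe-/- genotype, which is meant to remove apolipoprotein E, for both groups, and gavage was repeated at intervals of 3 days over 2 weeks. The sources used here give neither the gut segment, the age and sex of the mice, nor whether a library came from 1 mouse. The p-values therefore rest on the spread among these 6 libraries, which may be technical. All 33 members passed the filter on low counts, as did 16313 genes in all. A second, very short row named Ddit3 had no counts in any library and was not used.

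The unfolded protein response matches the folding capacity of the ER to the load of secretory and membrane proteins that enter it. Its sensors sit in the ER membrane. IRE1 splices the mRNA of the transcription factor XBP1, ATF6 is cut in the Golgi to free a transcription factor, and PERK phosphorylates the initiation factor eIF2 alpha, which slows translation while favouring that of ATF4. XBP1 and ATF6 raise chaperones and the machinery of ER-associated degradation (ERAD), which returns misfolded proteins to the cytosol. ATF4 raises genes of amino acid supply and, with CHOP, of cell death. Secretory cells of the gut, above all goblet and Paneth cells, depend on XBP1 and on the epithelial IRE1 beta. Splicing, cleavage and phosphorylation cannot be read from counts per gene, so the data bear only on mRNA levels. In bulk tissue, fewer cells of a type and less RNA per cell cannot be told apart.

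Members were placed in 3 arms, each gene once, although XBP1 and ATF6 share many targets. The IRE1-XBP1 arm held 11 genes, the ATF6 and ER folding arm 16 and the PERK-ATF4 arm 6. The ER stress element (ERSE, CCAAT and CCACG with 9 bases between them) and its variant ERSE-II (ATTGG and CCACG with 1 base between them) are the known binding sites of ATF6 and XBP1, and ATF4 binds elements that contain TGATGNAA. These motifs were searched on both strands of RefSeq promoter windows (GRCm38.p6, 250 bases before to 50 after the start), which 28 of the 33 members had. Shares are given beside those of the 11424 tested genes that had a window. ERSE was found in 8 of the 28 members (28.6%) and in 0.166% of these tested genes. ERSE-II was in 2 (7.14%) and in 0.0788%, and the ATF4 element in 4 (14.3%) and in 2.77%. The core of the XBP1 element, TGACGTGG, was in 0 members and in 1.05% of these tested genes. Members were named as targets of these factors, so the shares describe the choice of genes. Atf6, Derl1, Ern2, Hyou1 and Manf had no window. The sequences below run from base -220 to base 30 around the start and are shown so that genes with like elements can be set side by side. Capitals mark ERSE in Hspa5 (chr2:34771870-34772119, + strand), Pdia6 (chr12:17266369-17266618, + strand) and Dnajc3 (chr14:118937712-118937961, + strand). In Herpud1 (chr8:94386209-94386458, + strand) they mark the ATF4 element and then ERSE-II. In Asns (chr6:7693180-7693429, - strand) and Trib3 (chr2:152344031-152344280, - strand) they mark the ATF4 element.
Hspa5: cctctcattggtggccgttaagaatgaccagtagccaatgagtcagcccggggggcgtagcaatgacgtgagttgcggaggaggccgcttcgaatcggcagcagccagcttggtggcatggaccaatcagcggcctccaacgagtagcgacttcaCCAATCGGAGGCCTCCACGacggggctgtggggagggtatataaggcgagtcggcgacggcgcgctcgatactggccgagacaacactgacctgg
Pdia6: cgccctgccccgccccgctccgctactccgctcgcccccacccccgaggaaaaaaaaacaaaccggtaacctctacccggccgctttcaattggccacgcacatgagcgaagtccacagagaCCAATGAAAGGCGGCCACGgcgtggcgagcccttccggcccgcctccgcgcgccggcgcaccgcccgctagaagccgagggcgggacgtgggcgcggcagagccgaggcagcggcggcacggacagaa
Dnajc3: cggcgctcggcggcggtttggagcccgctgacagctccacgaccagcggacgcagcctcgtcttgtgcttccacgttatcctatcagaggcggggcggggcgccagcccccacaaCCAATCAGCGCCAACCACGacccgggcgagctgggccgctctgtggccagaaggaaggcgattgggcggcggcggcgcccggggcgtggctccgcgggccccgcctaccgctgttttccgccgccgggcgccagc
Herpud1: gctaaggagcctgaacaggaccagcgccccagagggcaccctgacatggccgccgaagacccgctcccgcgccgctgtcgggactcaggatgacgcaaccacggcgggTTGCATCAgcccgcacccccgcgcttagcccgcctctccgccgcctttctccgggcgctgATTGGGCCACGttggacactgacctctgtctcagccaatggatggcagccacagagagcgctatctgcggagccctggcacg
Asns: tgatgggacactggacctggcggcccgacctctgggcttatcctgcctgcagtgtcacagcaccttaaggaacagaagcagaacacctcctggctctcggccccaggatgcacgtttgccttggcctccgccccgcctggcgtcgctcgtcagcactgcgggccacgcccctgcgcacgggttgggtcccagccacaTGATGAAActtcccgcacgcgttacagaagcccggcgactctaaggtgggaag
Trib3: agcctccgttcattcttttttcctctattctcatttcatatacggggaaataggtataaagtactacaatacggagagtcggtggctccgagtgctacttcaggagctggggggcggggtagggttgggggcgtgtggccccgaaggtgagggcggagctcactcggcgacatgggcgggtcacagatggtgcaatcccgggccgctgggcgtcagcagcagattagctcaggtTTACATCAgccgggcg

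In 10 of the 33 members every Candida albicans library lay above every PBS library, and in 0 every one lay below (30.3% and 0.0%, against 17.6% and 18.1% of all genes tested). The 10 were the ERAD genes Edem1, Sel1l, Herpud1 and Derl1, the sensors Atf6 and Eif2ak3, the chaperone genes Dnajb9, Dnajc3 and Canx, and the disulfide isomerase gene P4hb. Hspa5, Xbp1, Atf4, Ddit3 and Sdf2l1 overlapped between the groups, as did 18 other members. The quasi-likelihood test of edgeR, with p-values adjusted over all genes by Benjamini-Hochberg, put 0 members and 0 of all genes (0.0%) under an adjusted p of 0.05. Under 0.1 it put 8 members on the higher and 0 on the lower side (24.2% higher, against 6.61% higher and 6.04% lower of all genes). By unadjusted p, 10 members were under 0.05 on the higher side and 0 on the lower (30.3% higher, against 13.4% higher and 16.2% lower of all genes). Limma-voom called 0 genes and 0 members at an adjusted p under 0.05. The DESeq2 Wald test called 10 members higher and 0 lower at an adjusted p under 0.05, where it called 10.7% and 7.15% of all genes. They were the same 10 genes whose groups did not overlap. With no filter on low counts edgeR called Edem1 and Herpud1 (1.02% of all genes higher and 0.885% lower).

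**Figure D1:**
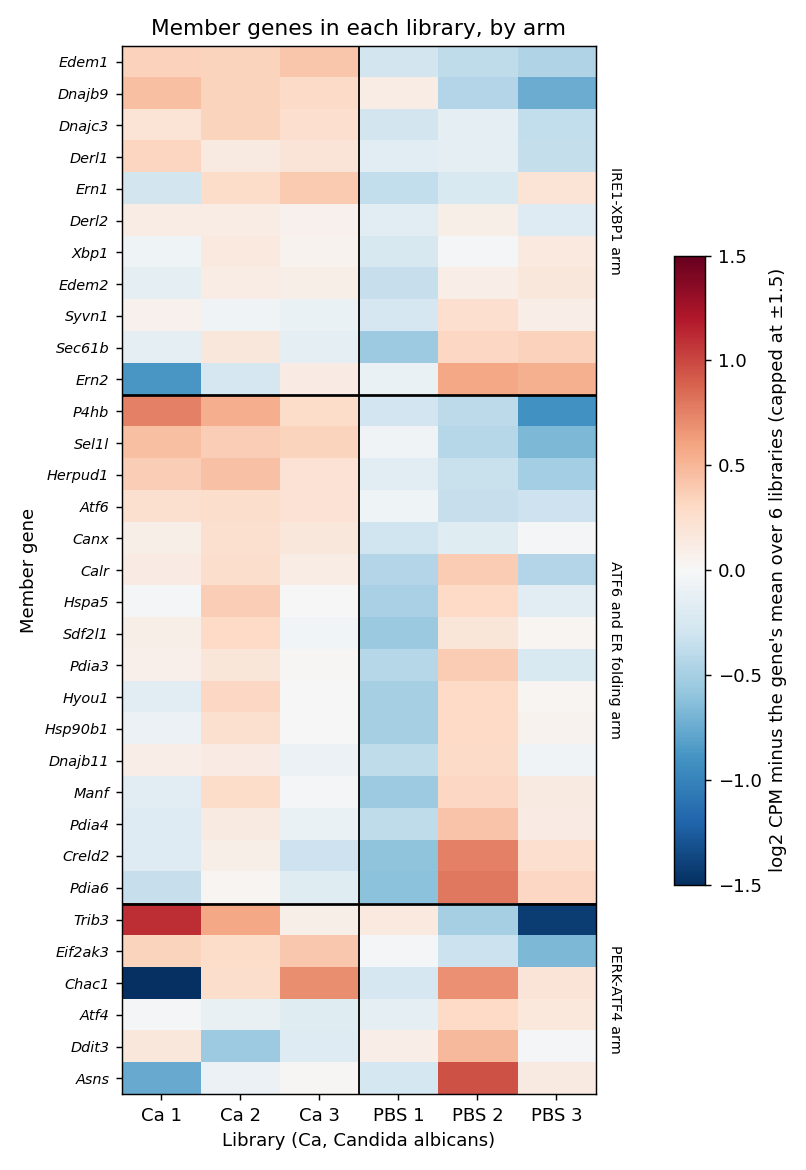
Heat map of the 33 member genes (rows, grouped by arm) in the 6 libraries (columns, Candida albicans left of PBS), coloured by log2 CPM minus the gene's mean over the libraries. Edem1, Sel1l, Herpud1 and P4hb separate the groups, while Hsp90b1, Calr, Pdia3 and Pdia6 are lowest in PBS replicate 1 and highest in PBS replicate 2.

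The median log2 fold change of the 33 members, Candida albicans over PBS, was 0.14, against -0.16 for all genes tested. By arm it was 0.18 for IRE1-XBP1, 0.17 for ATF6 and ER folding, and -0.20 for PERK-ATF4. A positive value was found in 8 of 11, 13 of 16 and 2 of 6 members in that order (69.7% over all members, against 39.5% of all genes). The number of members whose groups did not overlap, all higher, was 4 of 11, 5 of 16 and 1 of 6 (36.4%, 31.2% and 16.7%). Of all genes, 17.6% did not overlap on the higher side, near the share of the PERK-ATF4 arm, where only Eif2ak3 did not overlap. The difference between arms was not tested, because the members were chosen with results of these data known. With libraries scaled by their totals alone, the median of all genes was -0.45 and that of the members -0.14, and the 3 arm medians were -0.10, -0.11 and -0.47. The signs of the first 2 arms thus depended on the scaling, while both lay above the median of all genes under all 4 scalings. Scaled by totals, 8 members had groups that did not overlap and were higher, without Canx and Dnajb9, and Atf4 and Ddit3 did not overlap and were lower (7.71% and 36.1% of all genes).

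**Figure D2:**
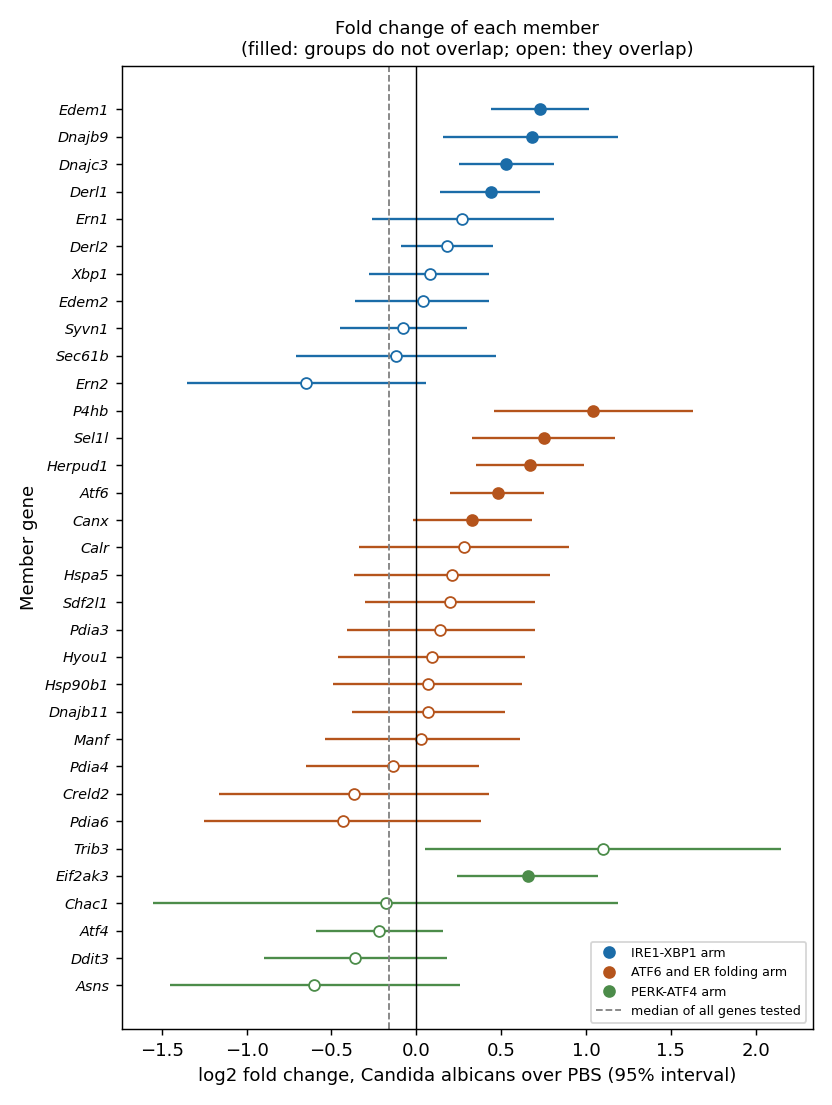
Log2 fold change of each member, Candida albicans over PBS, with its 95% interval from edgeR (3 libraries per group), coloured by arm, filled where the groups do not overlap. Filled points lie between 0.33 (Canx) and 1.04 (P4hb), and the dashed line is the median of all genes tested at -0.16.

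Among the sensors, the transcripts of Atf6 and Eif2ak3 were higher with Candida albicans, while those of the IRE1 genes overlapped. Atf6 encodes the membrane-bound transcription factor (ENSMUSG00000026663, chromosome 1, 170704674 to 170867771, minus strand, mm10). It had 81.5, 83.2 and 80.4 CPM (read counts relative to the scaled library total) in Candida albicans replicates 1 to 3, against 65.9, 54.4 and 55.9 CPM in PBS replicates 1 to 3. The Candida albicans libraries differed little among themselves and all lay above PBS replicate 1, the highest PBS library. Its log2 fold change was 0.48 (SE 0.11, edgeR adjusted p 0.081). Eif2ak3 encodes PERK (ENSMUSG00000031668, chromosome 6, 70844515 to 70905245). It had 44.1, 42.2 and 46.4 CPM with Candida albicans, against 34.3, 28.0 and 21.9 CPM with PBS. Its groups did not overlap, and its log2 fold change was 0.66 (SE 0.17, edgeR adjusted p 0.089).

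Ern1, which encodes the widely expressed IRE1 alpha, had 37.4, 54.5 and 59.3 CPM with Candida albicans, against 34.9, 38.4 and 51.9 CPM with PBS. Its replicate 1 library was the lowest in each group, and the log2 fold change of 0.27 (SE 0.22) was -0.02 under library totals. Ern2 encodes IRE1 beta, which is found in mucus-producing epithelium. It had 13.4, 20.6 and 26.7 CPM with Candida albicans, against 22.9, 36.7 and 35.6 CPM with PBS. Candida albicans replicate 3 lay above PBS replicate 1, so the groups overlapped, with a log2 fold change of -0.65 (95% interval -1.35 to 0.06). Ern2 was thus on the other side of 0 from Ern1, with intervals that overlap. Per kilobase of gene model the levels of the IRE1 genes were 6.83 CPM per kb for Ern2 and 6.17 for Ern1 with Candida albicans, and 10.7 for Ern2 and 5.11 for Ern1 with PBS. Of the 10 goblet cell markers, Ern2 among them, 4 had a positive and 6 a negative log2 fold change (median -0.35). The groups did not overlap for Fcgbp, a mucus protein gene (0.89, SE 0.35), and Zg16, a mucus lectin gene (0.96, SE 0.35), both higher. Muc2, the main intestinal mucin, had 0.10 (SE 0.25), Tff3 0.21, Clca1 -0.18, Klk1 -0.55 and Spink4 -1.21. Spdef, a goblet cell transcription factor, had -0.76 (SE 0.27), and Agr2, a disulfide isomerase of the ER, -0.52 (SE 0.47). Summed over the 10, the level was 8817 to 12304 CPM with Candida albicans, against 6448 to 9886 CPM with PBS. The part of goblet cell number in the Ern2 value was not tested.

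The transcription factors overlapped between the groups. Xbp1 mRNA, summed over its spliced and unspliced forms, had 208, 241 and 226 CPM with Candida albicans, against 185, 214 and 241 CPM with PBS (log2 fold change 0.08, 95% interval -0.28 to 0.43). Atf4 had 247, 232 and 222 CPM with Candida albicans, against 227, 309 and 279 CPM with PBS (log2 fold change -0.22, 95% interval -0.59 to 0.16). PBS replicate 1 lay within the range of the Candida albicans libraries for Atf4, and the other PBS libraries above it. Ddit3, which encodes the pro-apoptotic factor CHOP, had 26.5, 16.1 and 20.6 CPM with Candida albicans, against 25.1, 32.9 and 23.0 CPM with PBS (log2 fold change -0.36, 95% interval -0.90 to 0.18). Ddit3 overlaps the methionyl-tRNA synthetase gene Mars on the opposite strand, and the strand setting of the counting is not given, so reads may be shared between them.

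Of the 7 ERAD members, a group made after the values were seen, 6 had a positive value (85.7%, against 39.5% of all genes). The groups did not overlap in 4, all higher (57.1%, against 17.6% of all genes), and the median log2 fold change was 0.44. Edem1 encodes a lectin-like protein that marks misfolded glycoproteins for disposal (ENSMUSG00000030104, chromosome 6, 108828641 to 108859356, plus strand). It had 264, 262 and 276 CPM with Candida albicans, against 172, 160 and 152 CPM with PBS. The libraries of each group lay close together, with a wide gap between the groups. Its log2 fold change of 0.73 (SE 0.12, edgeR unadjusted p 0.00059, adjusted p 0.073) had the lowest p of the members. Sel1l, the scaffold of the HRD1 ubiquitin ligase (ENSMUSG00000020964, chromosome 12, 91806043 to 91849157), had 214, 201 and 197 CPM with Candida albicans, against 150, 116 and 98.0 CPM with PBS. Its log2 fold change was 0.75 (SE 0.18, edgeR adjusted p 0.081). Herpud1, which organises the same ligase complex (ENSMUSG00000031770, chromosome 8, 94386438 to 94395377), had 140, 147 and 126 CPM with Candida albicans, against 96.7, 86.0 and 76.2 CPM with PBS. Its log2 fold change was 0.67 (SE 0.13, edgeR adjusted p 0.078). Derl1, a channel component of ERAD, had 181, 159 and 166 CPM with Candida albicans, against 130, 131 and 113 CPM with PBS, with 0.44 (SE 0.12, edgeR adjusted p 0.094).

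The other ERAD members did not separate. Syvn1 encodes HRD1 itself, the ligase that Sel1l and Herpud1 serve. It had 149, 138 and 133 CPM with Candida albicans, against 120, 170 and 153 CPM with PBS. The log2 fold change was -0.08 (95% interval -0.45 to 0.30). Edem2, which trims mannose to start disposal, had 0.04 (95% interval -0.36 to 0.43), and Derl2, a relative of Derl1, had 0.18 (95% interval -0.09 to 0.45). Reads of Syvn1 may be shared with Mrpl49 and those of Derl2 with Mis12, which overlap them on opposite strands. Summed over the 7 genes, the level was 1093, 1064 and 1052 CPM with Candida albicans, against 790, 818 and 739 CPM with PBS.

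Chaperones and cofactors of the ER made a group of 11 members, formed after the values were seen. Of these, 10 had a positive value (90.9%, against 39.5% of all genes), with a median log2 fold change of 0.20. They overlapped between the groups, apart from 3 of 11 (27.3%, against 17.6% of all genes on the higher side). Hspa5 encodes BiP, the abundant HSP70 of the ER that also holds the sensors inactive (ENSMUSG00000026864, chromosome 2, 34771970 to 34777547, plus strand). It had 560, 733 and 564 CPM with Candida albicans, against 403, 695 and 508 CPM with PBS. PBS replicate 2 lay above Candida albicans replicates 1 and 3, and the log2 fold change was 0.21 (95% interval -0.37 to 0.79). Hsp90b1, the HSP90 of the ER known as GRP94, had 349, 437 and 371 CPM with Candida albicans, against 262, 458 and 386 CPM with PBS, and a log2 fold change of 0.07. Calr, a calcium-binding lectin chaperone, had 775, 855 and 765 CPM with Candida albicans, against 522, 923 and 524 CPM with PBS, and 0.28. Here PBS replicates 1 and 3 were below, and PBS replicate 2 above, all Candida albicans libraries. Hyou1, a nucleotide exchange factor of BiP, had 0.09, Dnajb11, a J-domain cofactor, 0.07, Sdf2l1, part of a BiP complex, 0.20, and Manf, a secreted stress protein of the ER, 0.03. The gene model of Manf overlaps Rbm15b and Dcaf1, so its value is uncertain. Creld2, another secreted ER stress protein, had 47.3, 57.1 and 43.6 CPM with Candida albicans, against 35.5, 91.2 and 64.1 CPM with PBS, and -0.37 (95% interval -1.16 to 0.43).

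Dnajb9, Dnajc3 and Canx were the chaperone genes whose groups did not overlap. Dnajb9 encodes ERdj4, a cofactor that returns IRE1 to its resting state (ENSMUSG00000014905, chromosome 12, 44205559 to 44210326). It had 70.8, 65.1 and 62.9 CPM with Candida albicans, against 55.5, 38.0 and 30.8 CPM with PBS (log2 fold change 0.68, SE 0.22, edgeR adjusted p 0.11). With 1 library left out the value lay between 0.52, without PBS replicate 3, and 1.06, without PBS replicate 1. Dnajc3 encodes p58IPK, an inhibitor of PERK and a cofactor of BiP (ENSMUSG00000022136, chromosome 14, 118937976 to 118981697). It had 162, 177 and 168 CPM with Candida albicans, against 116, 127 and 109 CPM with PBS, with 0.53 (SE 0.12, edgeR adjusted p 0.079). Canx, the membrane-bound lectin chaperone calnexin, had 539, 599 and 571 CPM with Candida albicans, against 413, 449 and 498 CPM with PBS, with 0.33 (SE 0.15, edgeR adjusted p 0.19).

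P4hb had the highest level and the largest difference of the 4 protein disulfide isomerases. Its product makes and rearranges disulfide bonds and is also a subunit of the microsomal triglyceride transfer protein, which loads lipid onto apolipoprotein B. P4hb (ENSMUSG00000025130, chromosome 11, 120560298 to 120573253, minus strand) had 3522, 3037 and 2513 CPM with Candida albicans, against 1703, 1584 and 1111 CPM with PBS. All Candida albicans libraries lay well above all PBS libraries, with a log2 fold change of 1.04 (SE 0.25, fold 2.06, edgeR adjusted p 0.081). It was also the most abundant member per length, at 1057 CPM per kb with Candida albicans and 512 with PBS, followed by Calr with 277 and 228. Pdia3, which works with calreticulin and calnexin, had 514, 555 and 494 CPM with Candida albicans, against 364, 635 and 418 CPM with PBS, and a log2 fold change of 0.14. Pdia4 had -0.14 (95% interval -0.65 to 0.37). Pdia6, which damps IRE1 activity, had 111, 145 and 125 CPM with Candida albicans, against 92.7, 245 and 176 CPM with PBS, and -0.43 (95% interval -1.25 to 0.38). The 15 mature enterocyte markers, Apob and Fabp1 among them, summed to 65978 to 89998 CPM with Candida albicans, against 14051 to 43163 CPM with PBS, so that the sums did not overlap. They were all on the higher side, with a median log2 fold change of 1.42, and Epcam, the pan-epithelial marker, had 0.82. Their part in the values of P4hb and of the ERAD genes was not tested.

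The 3 targets of the PERK-ATF4 arm pointed in different directions. Trib3, a pseudokinase that feeds back on ATF4 and CHOP, had 34.0, 23.7 and 16.8 CPM with Candida albicans, against 17.5, 11.2 and 5.87 CPM with PBS. Candida albicans replicate 3 lay just below PBS replicate 1, and the log2 fold change was 1.10 (SE 0.44, edgeR unadjusted p 0.042, adjusted p 0.16). With 1 library left out it lay between 0.80, without PBS replicate 3, and 1.64, without PBS replicate 1. Asns, asparagine synthetase, had 11.0, 17.5 and 18.9 CPM with Candida albicans, against 15.5, 36.0 and 20.4 CPM with PBS (log2 fold change -0.60, 95% interval -1.45 to 0.26). With 1 library left out it lay between -0.74 and -0.10, with -0.10 found without PBS replicate 2. Chac1, which breaks down glutathione, was the least abundant member, also per length, at 1.04 to 5.05 CPM with Candida albicans, within which all PBS libraries lay (log2 fold change -0.18, 95% interval -1.55 to 1.19). All 3 carry the ATF4 element, Asns at base -23, Trib3 at base 15 and Chac1 at base -193 from the start. The windows of Asns and Trib3 are shown above.

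Values of genes with the same promoter element are given side by side, without a test between them. Of the 8 members with ERSE, 5 had a positive and 3 a negative value, where 39.5% of all genes had a positive one. Dnajc3 and Canx, 2 of the 8, did not overlap on the higher side, as did 17.6% of all genes. Hspa5, Hsp90b1 (with 2 copies), Calr, Creld2, Pdia6 and Syvn1 overlapped. The log2 fold changes ran from -0.43 to 0.53 over the 8. The intervals of the 3 negative values, those of Creld2, Pdia6 and Syvn1, all included 0. Among the positive values, those of Hspa5, Hsp90b1, Calr and Canx also included 0, while that of Dnajc3 (0.25 to 0.81) did not. The ERSE of Hspa5 began at base -65, that of Dnajc3 at base -105 and that of Pdia6 at base -98. Of the 2 with ERSE-II, Herpud1 had 0.67 and Dnajb11 0.07. Of the 4 with the ATF4 element, Trib3 had 1.10 and Herpud1 0.67, against -0.18 for Chac1 and -0.60 for Asns. A match describes the letters of the window and is no evidence that a factor binds there.

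Sec61b, a subunit of the channel through which proteins enter the ER, had 83.4, 104 and 84.0 CPM with Candida albicans, against 63.5, 114 and 117 CPM with PBS (log2 fold change -0.12, 95% interval -0.71 to 0.47). Of 22 other translocation genes, 8 had groups that did not overlap and were higher and 3 were lower (36.4% and 13.6%, against 17.6% and 18.1% of all genes), with a median of 0.02 (-0.26 under library totals). Sec63, a partner of the channel, had 0.33 (SE 0.10, edgeR adjusted p 0.097) and Tram1 0.34, against -0.65 for the signal peptidase subunit gene Sec11c. Srp54a averaged 4.51 CPM with Candida albicans, against 2.26 CPM with PBS, and near-identical copies may share its reads. Of 14 glycosylation genes 2 did not overlap on the higher side (14.3%, below the 17.6% of all genes), with a median of 0.04. They were Stt3a (0.47) and Ostc (0.26, on the other side of 0 under library totals). Of 19 other folding genes 14 had a negative value, and the median was -0.15, near that of all genes. The 4 that did not overlap were higher (21.1%, near the 17.6% of all genes), namely the glucosidase subunit genes Prkcsh (0.43) and Ganab (0.31) with Erp44 (0.38) and Ppib (0.37).

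Of 22 other ERAD genes 10 did not overlap on the higher side and 1 on the lower (45.5% and 4.55%, against 17.6% and 18.1% of all genes). Their median log2 fold change was 0.19, and 16 had a positive value, against 7 with libraries scaled by totals alone. Edem3, a mannosidase related to Edem1, had 148 ± 14.7 CPM with Candida albicans, against 66.5 ± 15.2 CPM with PBS (mean ± SD, n = 3 each), and 1.16 (SE 0.19, edgeR adjusted p 0.073). Os9, a lectin that brings glycoproteins to Sel1l, had 0.71, and Dnajb12 had 0.72. All 19 genes of traffic between the ER and the Golgi had a positive value, 13 did not overlap (68.4%, against 17.6% of all genes), and the median was 0.61. With library totals, 16 of 19 were positive and the median was 0.32, whereas the median of the other ERAD genes was -0.09. Lman1 and Mcfd2, which form a cargo receptor, had 0.95 (SE 0.19) and 0.76 (SE 0.18), and the COPII coat genes Sec24a and Sec23a had 0.94 and 0.95. Summed, the traffic genes had 3778 to 4848 CPM with Candida albicans, against 2517 to 3088 CPM with PBS. The enterocyte markers separated the groups in the same way, and their part in these values was not tested.

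**Figure D3:**
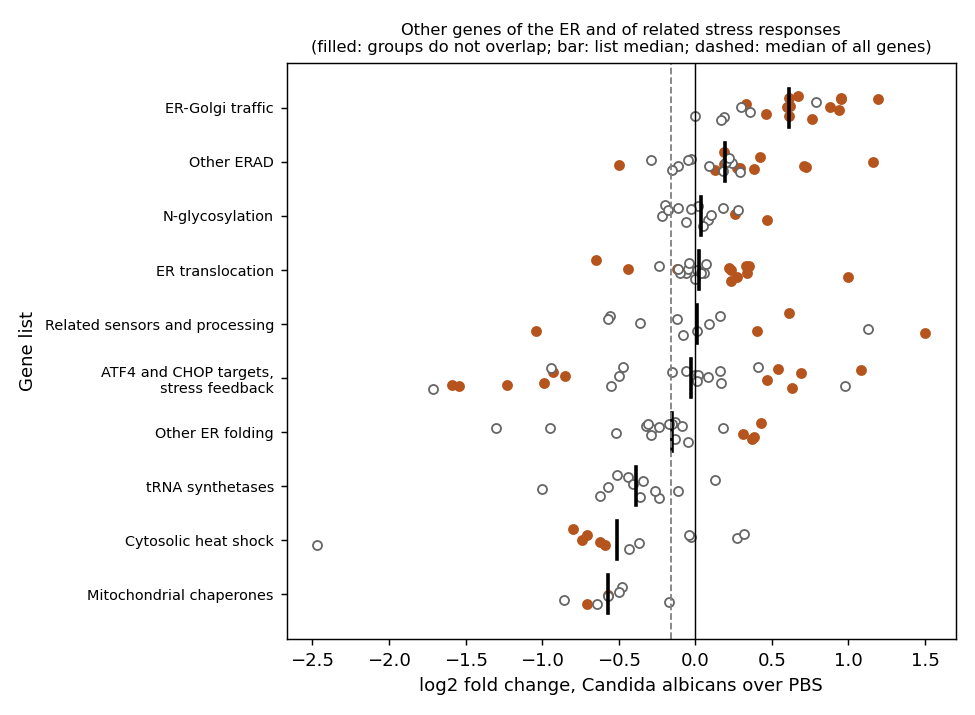
Log2 fold change, Candida albicans over PBS, of each tested gene in 10 lists of related genes (rows), filled where the groups do not overlap, with the list median as a bar and the median of all genes (-0.16) dashed. ER-Golgi traffic has the highest list median (0.61) and mitochondrial chaperones the lowest (-0.57).

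Of 26 tested targets of ATF4 and CHOP and genes of stress feedback, 5 did not overlap on the higher side and 6 on the lower. These shares (19.2% and 23.1%) were near the 17.6% and 18.1% of all genes, with a median log2 fold change of -0.03 (0.05 under DESeq2 size factors). Higher were the stress sensor gene Sesn2 (0.69, SE 0.16, edgeR adjusted p 0.079), Cebpg, a partner of ATF4 (0.47, SE 0.10), and the death receptor gene Tnfrsf10b (0.63, SE 0.14). Shmt2, of mitochondrial one-carbon metabolism, was lower at 17.5 ± 1.07 CPM with Candida albicans, against 33.4 ± 8.22 CPM with PBS (n = 3 each), with -0.93 (SE 0.20, edgeR adjusted p 0.078). The serine synthesis genes Psat1 (-1.59) and Phgdh (-1.54) and the amino acid transporter gene Slc7a5 (-1.23), chosen after their values were seen, did not overlap on the lower side, whereas its partner Slc3a2 (1.08) was higher. Of 12 tRNA synthetase genes, 11 had a negative value (median -0.39), and 8.33% a positive one, against 39.5% of all genes. The groups overlapped in all 12, whereas 18.1% of all genes did not overlap on the lower side. Wars, which interferon also raises, averaged 62.3 ± 8.25 CPM with Candida albicans, against 124 ± 60.9 CPM with PBS (SD, n = 3 each).

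Related sensors and the chaperones of other compartments gave further contrasts. Of 13 related sensors and processing genes, 3 did not overlap on the higher side and 1 on the lower. These shares were 23.1% and 7.69%, against 17.6% and 18.1% of all genes, with a median log2 fold change of 0.01. Creb3l2, of the ATF6-like OASIS family, averaged 173 ± 59.1 CPM with Candida albicans, against 61.4 ± 43.4 CPM with PBS (SD, n = 3). It was 2.82-fold higher (edgeR adjusted p 0.13) and Creb3 1.32-fold, while Creb3l1 (log2 fold change -0.56) and Creb3l3 (1.13) overlapped. Of the other kinases of eIF2 alpha, Eif2ak1 had 0.61 (SE 0.15, edgeR adjusted p 0.084), and Eif2ak2 had -0.57 and overlapped. Eif2ak4, at 4.42 CPM with Candida albicans, against 9.10 CPM with PBS, had -1.04 (SE 0.27, edgeR adjusted p 0.087). Cytosolic heat shock genes had 5 of 12 that did not overlap, all lower (41.7%, against 18.1% of all genes, median -0.51), among them Hsp90aa1 (-0.74), Hsph1 (-0.80), Hsp90ab1 (-0.62) and their regulator Hsf1 (-0.59). All 8 genes of the mitochondrial chaperone list had negative values (median -0.57, 0.0% positive, against 39.5% of all genes). The protease gene Clpp (-0.71) and the transcription factor gene Atf5 (-0.57), which are not chaperone genes, did not overlap (2 of 8, near the 18.1% of all genes). The 9 cell cycle markers were also negative (0.0% positive), with sums of 168 to 224 CPM with Candida albicans, against 227 to 453 CPM with PBS.

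Totals were 21406930 to 24891735 counts per library. The epithelial genes Epcam and Vil1 were detected in all 6 libraries, which also differed in markers of other tissue. The 10 smooth muscle markers summed to 1792, 234 and 206 CPM in Candida albicans replicates 1 to 3, against 7055, 524 and 3493 CPM in PBS replicates 1 to 3, and the 7 B cell markers to 185, 1.62 and 2.21 CPM, against 188, 117 and 65.3 CPM, with 1 of the 7 at 0 in Candida albicans replicates 2 and 3. The part of these cells in the member values was not tested. Mitochondrially encoded genes held 3.19% to 4.63% of counts with Candida albicans and 5.89% to 8.92% with PBS. Plasma cells, which carry a large ER, had 10 markers summing to 473 to 597 CPM with Candida albicans, against 176 to 432 CPM with PBS. Of the 9 tested, 4 had a positive and 5 a negative log2 fold change. Igha (2.01), Jchain (1.89) and Igkc (1.15) did not overlap and were higher (33.3%, against 17.6% of all genes). Mzb1 (-0.30) was among those that overlapped. The 10 Paneth cell markers summed to 1194 to 6725 CPM with Candida albicans, against 2456 to 3141 CPM with PBS. Apoe itself was counted in both groups, at 62.1 ± 12.5 CPM with Candida albicans, against 83.2 ± 23.3 CPM with PBS (n = 3 each). Counts over a whole gene do not show which part of Apoe is deleted, so they do not check the label.

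The values of the chaperone genes depended on PBS replicates 1 and 2. In each of the 11 members of the ATF6 and ER folding arm whose groups overlapped, PBS replicate 1 was the lowest of all 6 libraries, and in 8 of them PBS replicate 2 was the highest, in a subset chosen after the values were seen. Over all genes tested, PBS replicate 1 was the lowest in 1839 of 16313 and PBS replicate 2 the highest in 3615. With PBS replicate 2 left out, Hspa5, Calr and Pdia3 had log2 fold changes of 0.51, 0.67 and 0.48, and their groups did not overlap. In all, 14 members were then higher without overlap and 0 lower, against 22.2% and 28.2% of all genes. Without PBS replicate 1 the same genes had 0.16, 0.26 and 0.10. In all, 11 members did not overlap on the higher side (22.3% of all genes), and 7, Pdia6, Creld2, Sec61b, Syvn1, Atf4, Asns and Ern2, on the lower side (31.2% of all genes). Edem1, Atf6, Herpud1 and Sel1l kept their sign. Edem1 lay between 0.71 and 0.90, Atf6 between 0.47 and 0.69, Herpud1 between 0.62 and 0.88 and Sel1l between 0.64 and 1.04 with any 1 library left out. Without PBS replicate 1, edgeR called 9 members higher and 0 lower at an adjusted p under 0.05 (10.1% and 5.53% of all genes), namely the 10 that did not overlap other than Canx. Without replicate 1 of both groups, the libraries richest in B cell markers, an alternative chosen after seeing the data, edgeR called 6 higher and 0 lower (7.02% and 6.02% of all genes), namely Atf6, Dnajb9, Edem1, Eif2ak3, Herpud1 and Sel1l.

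**Figure D4:**
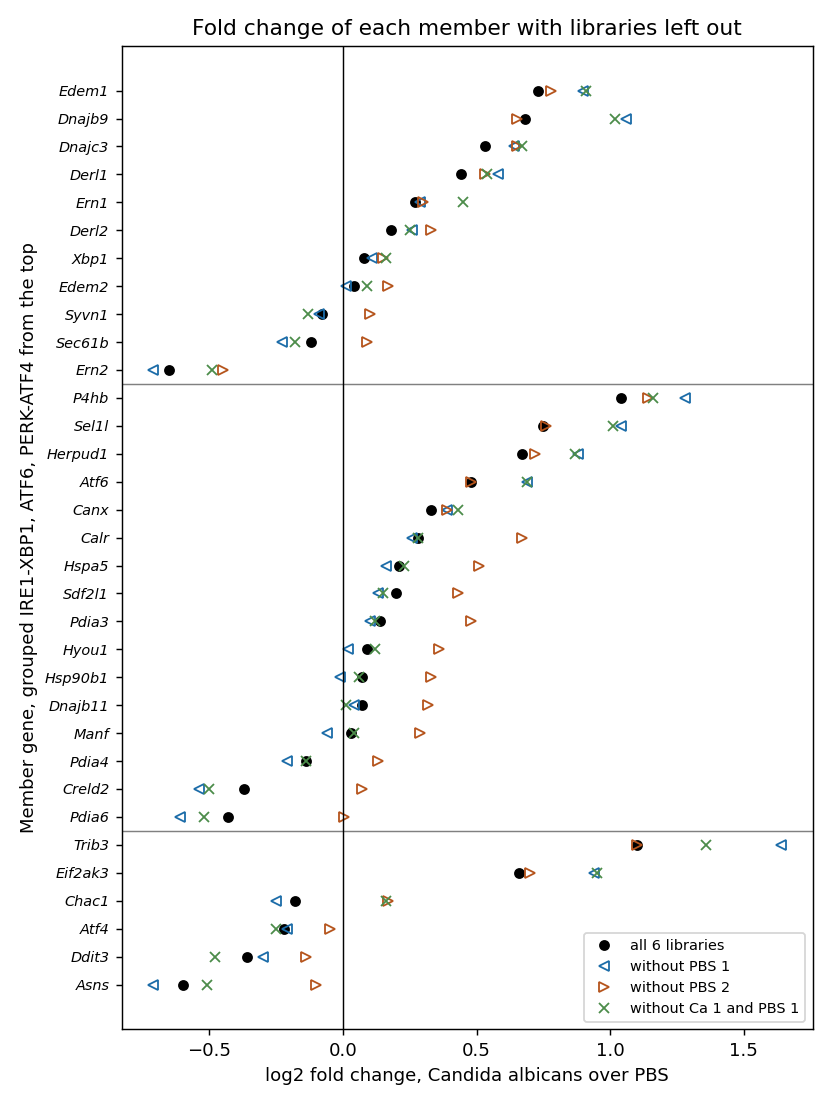
Log2 fold change of each member, Candida albicans over PBS, with all 6 libraries (circles), without PBS replicate 1, without PBS replicate 2, and without replicate 1 of both groups. Hspa5, Calr, Pdia3 and Pdia6 shift to higher values without PBS replicate 2, whereas Edem1, Herpud1, Sel1l and Atf6 stay at 0.47 or more in all 4 settings.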

How the data were processed

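The authors deposited 1 table of raw counts of reads per gene, with Ensembl identifiers and not normalized. The submitters' processing notes name HISAT2 2.2.1 as well as Trim Galore 0.6.7 and featureCounts 2.0.1, on build mm10. Parameters, strandedness and annotation release: not given in the sources used here. Gene positions and model lengths come from the same table. The counts were tested with edgeR 4.0.16 (R 4.3.3). After filterByExpr (minimum count 10, minimum total 15) and TMM scaling, Candida albicans was set against PBS with glmQLFit (robust=TRUE) and glmQLFTest, two-sided, without covariates, and p-values of 16313 genes were adjusted by Benjamini-Hochberg. CPM uses TMM-scaled totals, and 0 counts in a library limit a gene to 0.113 to 0.148 CPM (3 counts, counting error only). Standard errors and 95% intervals of log2 fold changes come from the F statistic. Alternatives were other scalings and filters, DESeq2 1.42.0, limma 3.58.1 (voom), robust=FALSE, a replicate block and removal of each library. The text names all 33 members and up to 4 genes of lowest p from each wider list, of which 1 is not reported here. Members, arms and lists were chosen with earlier results of these data known, and the grouping by role after the values were seen.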

Additional observations from a re-analysis of the deposited data

How the results depend on the processing

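At an adjusted p under 0.05, the number of all genes called was 0 in edgeR, 188 under library totals only, 3 under upper quartile scaling, 552 with no filter on low counts, 42 among genes that averaged at least 5 CPM, 2911 by the DESeq2 Wald test and 2110 without replicate 1 of both groups, and lay between 0 and 2620 with 1 library left out, the highest without PBS replicate 1. The number of members called was 0 in edgeR, 2 with no filter (Edem1 and Herpud1), 10 by DESeq2 and 6 without replicate 1 of both groups, and lay between 0 and 9 with 1 library left out. With the replicate number as a block, edgeR called 2080 genes and 8 members (7 higher and Ern2 lower, against 1030 and 1050 of all genes). Same-numbered libraries deviated together for replicates 1 (r = 0.576) and 2 (r = 0.357) but hardly for replicate 3 (r = 0.046, over genes). Candida albicans replicate 3 and PBS replicate 2, which differ in number, had r = 0.408, above the value for replicate 2. The numbers are thus not shown to pair the libraries. The member median of 0.14 was -0.14 under library totals, and lay between 0.08 and 0.33 with 1 library left out. The median of the ATF6 and ER folding arm was -0.11 under library totals. For TMM, DESeq2 size factors, upper quartile and library totals in that order, all genes had a median of -0.16, -0.08, -0.20 and -0.45, and 45.2%, 54.5%, 41.0% and 13.8% of the genes with an unadjusted p under 0.05 were higher.

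Of 33 members, 12 had a positive and 4 a negative log2 fold change in edgeR and under all 16 alternatives. Of 527 member values under alternatives, 30 turned sign. Under library totals these were Ern1 (-0.02), Xbp1 (-0.21), Edem2 (-0.25), Derl2 (-0.10), Hspa5 (-0.07), Hsp90b1 (-0.22), Hyou1 (-0.20), Dnajb11 (-0.21), Sdf2l1 (-0.09), Manf (-0.25) and Pdia3 (-0.14). Syvn1 had 0.01 under DESeq2 size factors and 0.01 by the DESeq2 Wald test, and among genes averaging at least 5 CPM Edem2 had -0.01 and Manf -0.004. Chac1 had 0.16 without replicate 1 of both groups. With 1 library left out the ranges were -0.63 to 0.25 for Chac1, -0.003 to 0.18 for Edem2, -0.03 to 0.33 for Hsp90b1, -0.04 to 0.36 for Hyou1, -0.09 to 0.29 for Manf, -0.23 to 0.09 for Sec61b, -0.12 to 0.10 for Syvn1, -0.54 to 0.07 for Creld2, -0.23 to 0.13 for Pdia4 and -0.61 to 0.005 for Pdia6. The cause was not tested, apart from library totals, which lower all values together. The 95% interval of Hspa5 was -0.37 to 0.79, so with 3 libraries per group neither a higher nor a lower level of that gene was detected.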
